A study of Homo sapiens with 6 samples.

Results

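The matrix metalloproteinases and their inhibitors described here are 10 genes chosen by name, of 57905 gene identifiers in the deposited table: the proteases MMP1, MMP2, MMP9, MMP14, MMP15 and MMP24, and the inhibitors TIMP1, TIMP2, TIMP3 and RECK. They were measured by RNA sequencing in A549 cells, a long-established line from a human adenocarcinoma of the lung. Cells transfected with miR-19a at 25 nM gave 3 samples, and cells transfected with a negative control microRNA, miR-NC, gave 3 more, with 24 h named as the time of treatment. The comparison asks how the transcripts of these genes differ after miR-19a relative to the control microRNA. All samples come from 1 cell line. Separate cultures are not stated for the 3 samples of a group, so a p-value here reflects only how these samples scatter, and that scatter could be technical.

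Matrix metalloproteinases are zinc-dependent enzymes that cut collagens, other matrix proteins and cell surface proteins. They are made as inactive precursors and switched on when the propeptide is removed, outside the cell for secreted members such as MMP1, MMP2 and MMP9, and often by furin inside the cell for the membrane-type members MMP14, MMP15 and MMP24. TIMPs are secreted proteins that block the active site, and RECK is a membrane-anchored inhibitor of several of these enzymes. In lung carcinoma the balance of proteases and inhibitors has been studied mainly for invasion through the basement membrane. Transcript levels are reported here, not protein or enzyme activity.

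The microRNA pairs with messenger RNAs through its seed, bases 2 to 8. Its mature 3p strand, shown because every site below is matched to it, is given 5′ to 3′ from RefSeq (GRCh38.p14, chromosome 13, 91350939 to 91350961, plus strand), with the seed in capitals. The labels do not name the strand of the transfected product.
hsa-miR-19a-3p: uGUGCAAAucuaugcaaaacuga
hsa-miR-19b-3p: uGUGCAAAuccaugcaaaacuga
The second line is the related miR-19b, which has the same seed. Sites were searched on the sense strand of the transcript, in the strongest class first: TTTGCACA (8mer), TTTGCAC (7mer-m8), TTGCACA (7mer-A1) and TTGCAC (6mer), each shorter class being contained in the 8mer.

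In the 3′ UTR of the transcript with the longest coding sequence, 2 of the 10 genes held a site, both of them inhibitors. TIMP2 held a 7mer-A1 site at bases 897 to 903 and a 6mer site at bases 1959 to 1964 of its 2690-base 3′ UTR, in exon 5 of 5. TIMP3 held a 7mer-A1 site at bases 1838 to 1844 of its 3666-base 3′ UTR, also in exon 5 of 5. The windows are given 5′ to 3′ on the transcript strand with the site in capitals, from GENCODE v29 on GRCh38. They lie at chr17:78854753-78854781 (minus strand), chr17:78853691-78853720 (minus strand) and chr22:32861204-32861232 (plus strand).
TIMP2 7mer-A1: cctggattgagTTGCACAgctttgcttta
TIMP2 6mer: taggtattagacTTGCACttttttaaaaaa
TIMP3 7mer-A1: actgtagagtcTTGCACAcacacaagtgc
The 3′ UTRs of MMP1, MMP2, MMP9, MMP14, MMP15, MMP24, TIMP1 and RECK held none of the 4 site classes. Their 3′ UTRs ran from 98 bases in TIMP1 to 2391 bases in MMP24, against a median of 1001 bases over the tested genes with one. Of those 10423 tested genes, 27.9% held any of the 4 classes and 18.6% held a site of 7 bases or more. TIMP1 held a 7mer-A1 match in its coding sequence, in exon 5 of 6 (chrX:47585563-47585569, plus strand). In the TIMP1 transcript with the longest 3′ UTR that match falls within the UTR, which brings the number of genes with a 3′ UTR site to 3. RECK held a 6mer in its coding sequence and MMP1 held a 6mer in its 5′ UTR.

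Total counts lay between 15699037 and 17957932 per library, with normalization factors from 0.994 to 1.01. Of 12452 genes with a mean FPKM (fragments scaled for exon length and for library size) of at least 1, 48.4% passed an adjusted p of 0.05 in the edgeR quasi-likelihood test. These split into 24.9% that were higher and 23.5% that were lower with miR-19a. In 54.0% the 3 libraries of a group lay wholly above the 3 of the other. The median log2 fold change over all tested genes was -0.0045. A549 carries epithelial markers (KRT8, KRT18, KRT19, CDH1) and high ALDH1A1 and AKR1B10, and the 8 markers of that list summed to 4514 to 4605 FPKM with miR-NC and 4609 to 4636 with miR-19a, 3 of 7 tested being higher and 2 lower. Its EPCAM was low, with a mean of 0.603 FPKM in miR-NC.

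Per gene length, the inhibitors TIMP1 and TIMP2 were the most abundant of the 10 transcripts. In miR-NC, TIMP1 had 72.8 ± 2.21 FPKM (SD, n = 3) and TIMP2 had 72.2 ± 4.58, and their libraries overlapped. MMP24 had 18.7 ± 0.774, MMP15 10.6 ± 0.222, RECK 2.09 ± 0.127 and MMP2 1.70 ± 0.0945, each separated from its neighbours in the order. MMP9 at 0.76 ± 0.157 and MMP14 at 0.633 ± 0.0751 overlapped. TIMP3 had 0.16 ± 0.0436, and MMP1 0.03, with 0 to 2 counts in each of the 6 libraries. With miR-19a, MMP2 at 2.54 ± 0.103 FPKM stood at the same level as RECK at 2.48 ± 0.305, the libraries overlapping, and MMP9 at 1.80 ± 0.216 stood wholly above MMP14 at 0.62 ± 0.0265. The deposited FPKM imply lengths of 1790 bases for TIMP1 and 5633 for TIMP2. Their transcripts with the longest coding sequence have 892 and 3652 bases, so how TIMP1 and TIMP2 compare depends on the length used.

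**Figure D1:**
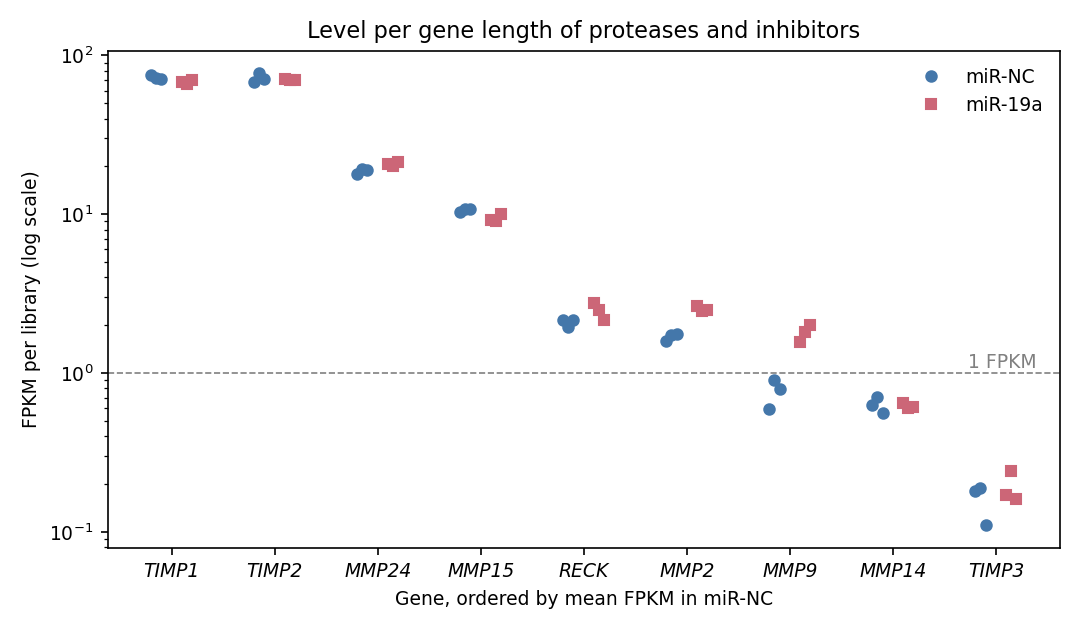
FPKM (log axis) in each of the 6 libraries for 9 of the 10 genes, ordered by mean in miR-NC, 1 point per library, with a dashed line at the 1 FPKM minimum and MMP1 left out because it is listed at 0 in some libraries. The libraries of TIMP1 and TIMP2 lie between 65.95 and 77.13 FPKM, and MMP9 lies below the line with miR-NC and above it with miR-19a.

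Among the proteases, the secreted gelatinases MMP9 and MMP2 rose, MMP24 rose slightly, and MMP15 fell slightly. Of the 10 genes, 7 had a mean FPKM of at least 1 and were tested, and 5 of the 7 passed, 4 higher (MMP9, MMP2, RECK, MMP24) and 1 lower (MMP15), against the 48.4% of all tested genes given above. In these 5 the 3 libraries of each group also did not overlap in CPM (counts scaled to library size), against 54.0% of tested genes. RNA from a whole culture does not tell a change in the number of cells that express a gene from a change in RNA per cell.

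MMP9, gelatinase B, which degrades denatured collagens and type IV collagen of basement membrane, had the largest change of the 7 (ENSG00000100985, chromosome 20, 46008908 to 46016561, plus strand, GRCh38). It had 1.39, 2.12 and 1.84 CPM in miR-NC replicates 1 to 3 and 3.73, 4.30 and 4.74 CPM in miR-19a replicates 1 to 3, from 23, 34 and 29 counts and 60, 73 and 84 counts. All 3 libraries with miR-19a lay above all 3 controls. The log2 fold change was 1.26 (SE 0.22, 95% interval 0.83 to 1.69, edgeR adjusted p = 1.2e-06), a 2.39-fold rise, and 1.09% of tested genes had a larger absolute change. With a control mean of 0.76 FPKM, MMP9 reached the expression minimum of 1 only through the miR-19a libraries. It also passed in each run with a lower minimum or none. SLC12A5-AS1, on the opposite strand, shares 430 bases with the exons of MMP9 and had 6, 9 and 7 counts with miR-NC and 10, 10 and 9 with miR-19a.

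MMP2, gelatinase A, cuts similar substrates and is activated at the cell surface by MMP14 together with TIMP2 (ENSG00000087245, chromosome 16, 55389700 to 55506691, plus strand). Its values were 7.89, 8.62 and 8.71 CPM with miR-NC and 13.2, 12.3 and 12.5 CPM with miR-19a. The groups were far apart relative to the spread within each, at 8.41 ± 0.45 and 12.7 ± 0.508 CPM (SD, n = 3). The log2 fold change was 0.59 (SE 0.11, 95% interval 0.37 to 0.81, edgeR adjusted p = 7.2e-06), a 1.51-fold rise.

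The membrane-type enzymes moved less. MMP24, also called MT5-MMP, is best known from nervous tissue and was the most abundant protease of the 6 per length (ENSG00000125966, chromosome 20, 35226654 to 35277000, plus strand). It measured 78.9, 85.6 and 83.9 CPM with miR-NC and 92.1, 89.9 and 95.2 CPM with miR-19a, all treated libraries above all controls. The log2 fold change was 0.16 (SE 0.048, edgeR adjusted p = 0.0044). Leaving out miR-NC replicate 1 gave 0.12 and an adjusted p of 0.0606. On the opposite strand MMP24OS shares 799 bases with the exons of MMP24, or 18.1% of them. MMP24OS fell from 11.6 to 9.96 FPKM, with a log2 fold change of -0.20 (SE 0.06, edgeR adjusted p = 0.0035). No source used here states whether the counting used strand, so reads from the shared bases cannot be told apart.

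MMP15, or MT2-MMP, is a collagen- and fibrin-degrading enzyme of the cell surface (ENSG00000102996, chromosome 16, 58025566 to 58046901, plus strand). Its values were 45.9, 47.8 and 47.4 CPM with miR-NC and 41.2, 40.6 and 45.2 CPM with miR-19a. The third miR-19a library lay close to the lowest control, although the groups did not overlap. This gave a log2 fold change of -0.15 (SE 0.06, 95% interval -0.27 to -0.03, edgeR adjusted p = 0.0327). The call was lost in 7 of 15 alternatives, including DESeq2 (adjusted p = 0.0762) and leaving out miR-19a replicate 2 (edgeR adjusted p = 0.140).

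MMP14 (MT1-MMP, ENSG00000157227, chromosome 14, 22836557 to 22849027, plus strand), the main membrane activator of pro-MMP2, was below the expression minimum. It measured 2.83, 3.19 and 2.48 CPM with miR-NC and 2.92, 2.71 and 2.77 CPM with miR-19a, the treated libraries lying within the range of the controls. The exact permutation test, two-sided, gave p = 0.9, where 3 samples against 3 cannot give less than 0.1. MMP1, interstitial collagenase (ENSG00000196611, chromosome 11, 102789920 to 102798160, minus strand), had 1, 2 and 0 counts with miR-NC and 0, 1 and 2 with miR-19a. A difference in MMP1 was not detectable at this depth.

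**Figure D2:**
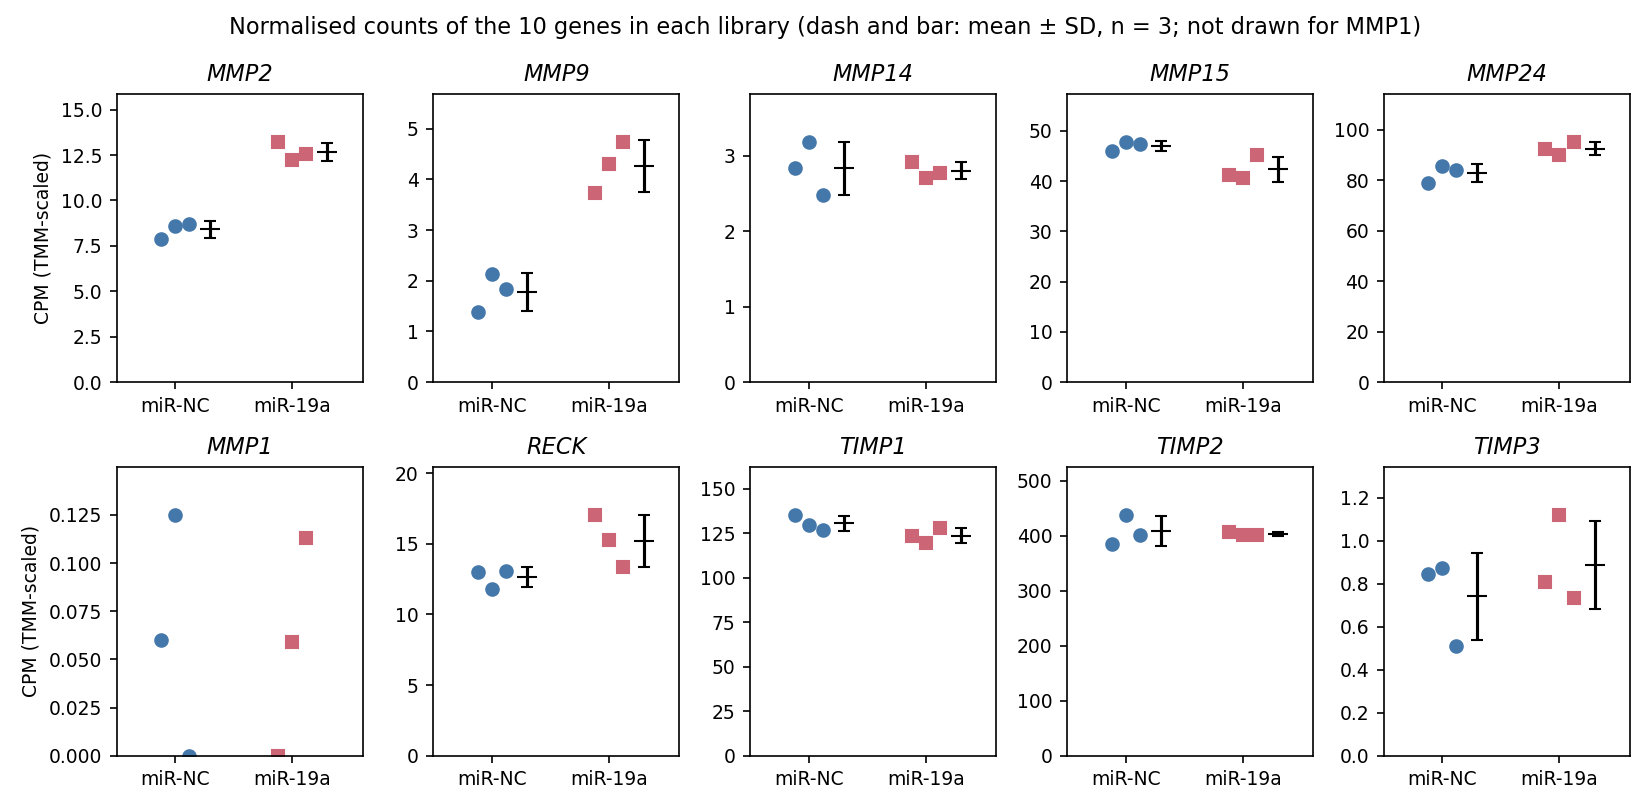
CPM of each of the 10 genes in the 3 miR-NC and the 3 miR-19a libraries, each panel with its own axis from 0, points for libraries and a dash with a bar for the mean ± SD except in MMP1. In MMP9 the treated libraries lie at 3.73 to 4.74 CPM and the controls at 1.39 to 2.12, whereas in TIMP1 and TIMP2 the groups overlap.

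The inhibitors did not move together. RECK rose, while TIMP1 and TIMP2, the most abundant inhibitors, did not pass the test. RECK (ENSG00000122707, chromosome 9, 36036433 to 36124451, plus strand) limits MMP2, MMP9 and MMP14 at the cell surface. It measured 13.0, 11.8 and 13.1 CPM with miR-NC and 17.0, 15.3 and 13.3 CPM with miR-19a. The lowest treated library was just above the highest control. RECK rose by 0.26 on the log2 scale (SE 0.0995, 95% interval 0.06 to 0.46, edgeR adjusted p = 0.0238). The call was lost in 6 of 15 alternatives, among them DESeq2 (adjusted p = 0.0776) and leaving out miR-19a replicate 1 (0.18, edgeR adjusted p = 0.210).

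TIMP1 (ENSG00000102265, chromosome X, 47582313 to 47586789, plus strand), a secreted inhibitor that also binds pro-MMP9, had 135, 129.7 and 127 CPM with miR-NC and 123, 119.6 and 128 CPM with miR-19a. The third miR-19a library lay above the lowest control. This gave a log2 fold change of -0.08 (SE 0.043, 95% interval -0.17 to 0.01, edgeR adjusted p = 0.119). TIMP2 (ENSG00000035862, chromosome 17, 78852977 to 78925387, minus strand), which inhibits MMP14 and also helps it to activate pro-MMP2, had 385, 438 and 402 CPM with miR-NC and 407, 402 and 401 CPM with miR-19a. The treated libraries lay within a narrow band inside the range of the controls. The log2 fold change was -0.02 (SE 0.039, 95% interval -0.09 to 0.06, edgeR adjusted p = 0.737), and its sign changed without miR-NC replicate 2 (0.03). The exons of TIMP2 share 367 bases with AC022966.1 and 198 bases with CEP295NL, both below 1 FPKM.

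TIMP3 (ENSG00000100234, chromosome 22, 32801701 to 32863043, plus strand), the matrix-bound TIMP that also inhibits ADAM17, was below the expression minimum. Its counts were 14, 14 and 8 with miR-NC and 13, 19 and 13 with miR-19a. The groups overlapped, and the exact permutation test, two-sided, gave p = 0.6. Beside the sequences shown above, TIMP2 and TIMP3, the genes with a 3′ UTR site in the main transcript, had log2 values of -0.02 (fitted) and 0.26 (ratio of mean CPM). TIMP2 did not pass its test, whereas the permutation test of TIMP3 cannot give less than 0.1 and so could not pass. Where a lower minimum or none let TIMP3 into the edgeR fit, its edgeR adjusted p was 0.627 to 0.686. Leaving out a single library moved the TIMP3 value: to 0.392 for miR-NC replicate 2, to 0.0467 for miR-NC replicate 3, and to 0.0526 for miR-19a replicate 2. The 5 genes that passed held no 3′ UTR site of the 4 classes, which was also so for 72.1% of tested genes with a 3′ UTR.

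The summed transcript of the 6 chosen MMPs was slightly higher with miR-19a and that of the 3 chosen TIMPs slightly lower. TIMP1 and TIMP2, which did not pass their tests, made up 50.2% and 49.7% of the TIMP sum with miR-NC. The FPKM summed here are scaled to library size without the normalization factors of the fits. These sums are descriptions with no test. They leave out MMP7 (mean 6.09 FPKM with miR-NC, 3.41 with miR-19a), MMP17 (2.64 and 3.97) and TIMP4 (6.55 and 9.65). MMP7 and TIMP4 moved against the direction of these sums, and MMP17 moved with it. The sums and ratios therefore hold only for the chosen genes. The 6 MMPs summed to 32.5 ± 1.26 FPKM with miR-NC and 35.1 ± 1.29 with miR-19a (SD, n = 3), and the 3 TIMPs to 145.2 ± 3.56 and 138.8 ± 2.12. The ratio of TIMP to MMP was 4.62, 4.47 and 4.34 in the controls and 4.02, 4.01 and 3.85 with miR-19a, the groups not overlapping. MMP24 made up 57.7% of the protease sum with miR-NC and 58.9% with miR-19a. MMP15 made up 32.7% and 26.9%, MMP2 5.23% and 7.23%, and MMP9 2.33% and 5.11%. The ratio of TIMP1 to MMP9 was 99.2 ± 25.1 with miR-NC and 38.2 ± 4.35 with miR-19a, and that of TIMP2 to MMP2 was 42.6 ± 2.08 and 27.9 ± 0.949. The ratio of TIMP2 to MMP14 was 114.8 ± 11.2 and 114.0 ± 4.06.

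Other MMPs were mostly silent in A549. Of 21 MMP genes in the table, 6 reached a mean of 1 FPKM (MMP2, MMP7, MMP9, MMP15, MMP17 and MMP24), and MMP3, MMP20, MMP23B and MMP26 had no count in any library. MMP1 lies in the chromosome 11 cluster, of which 8 genes were in the table. There 7 stayed below 0.3 FPKM in every library, and MMP7 was the exception.

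MMP7, matrilysin, an epithelial protease that cuts surface proteins, fell. Its FPKM was 5.89, 6.30 and 6.09 with miR-NC and 3.38, 3.73 and 3.12 with miR-19a, with a log2 fold change of -0.82 (SE 0.11, edgeR adjusted p = 2.4e-09). MMP17, an MMP anchored to the membrane by a lipid, had 2.57, 2.52 and 2.83 FPKM with miR-NC and 3.99, 3.81 and 4.12 with miR-19a, a log2 rise of 0.61 (SE 0.099, edgeR adjusted p = 4.2e-07). TIMP4, the fourth TIMP, had 6.33, 6.99 and 6.33 FPKM and 10.2, 9.41 and 9.38 with miR-19a, a log2 rise of 0.57 (SE 0.099, edgeR adjusted p = 1.3e-06). In each of these 3 genes the groups did not overlap in CPM, against 54.0% of tested genes. All 3 passed the test, against 48.4% of tested genes. The 3 were those tested of 16 list genes in the table, and their median log2 fold change was 0.57 against -0.0045 over all tested genes. MMP7 held a 7mer-A1 at bases 52 to 58 of a 268-base 3′ UTR (window chr11:102520707-102520735, minus strand, site in capitals), shown because it is a site of the same class as those of TIMP2 and TIMP3.
MMP7 7mer-A1: gtatatcattgTTGCACAatcagaattga

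**Figure D3:**
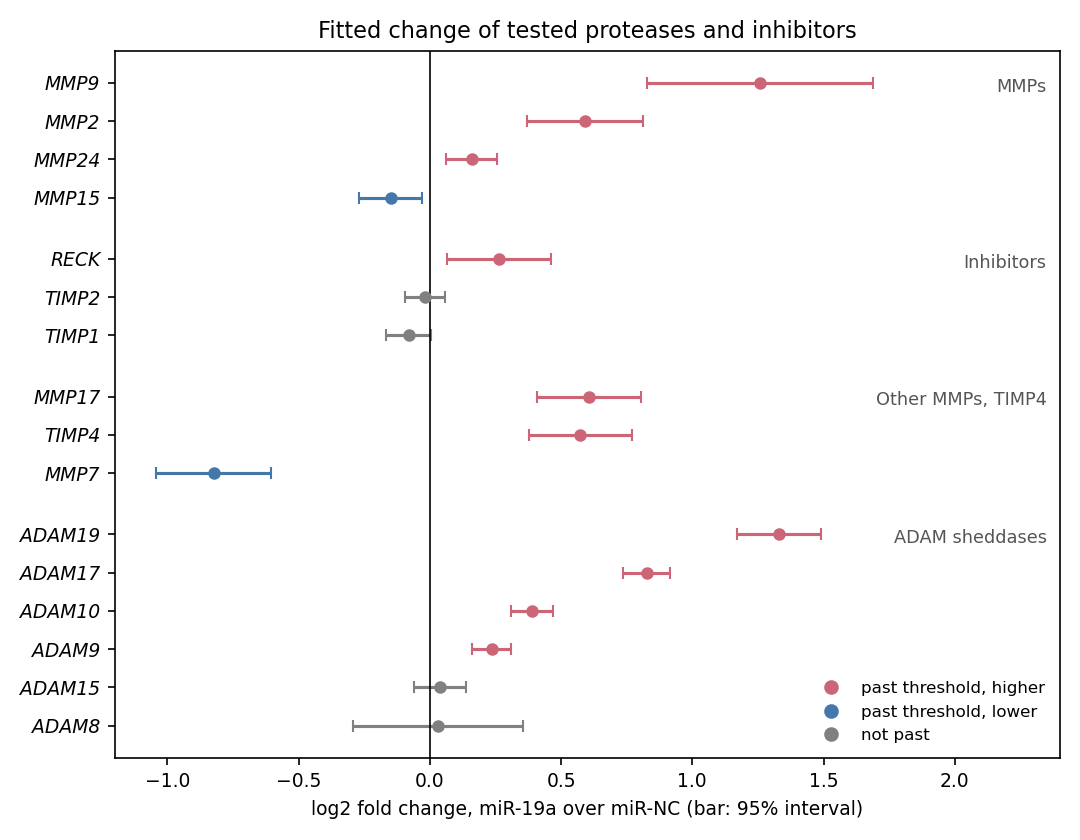
Fitted log2 fold change (miR-19a over miR-NC) of the tested MMPs, inhibitors and ADAM sheddases, points with bars for the 95% interval, coloured by whether the edgeR adjusted p passed 0.05. MMP9 at 1.26 and ADAM19 at 1.33 lie farthest to the right and MMP7 at -0.82 farthest to the left.

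The enzymes that act on the MMPs or share their substrates were counted from further lists. ADAM sheddases are membrane proteases that release surface proteins, and TIMP3 can inhibit some of them. Of 9 listed, 6 were tested, 4 were higher and 0 were lower, with a median log2 fold change of 0.31. Over all tested genes, 48.4% passed, 24.9% higher and 23.5% lower, and the lists below are small and are read against those shares. ADAM17, the TNF-releasing enzyme, rose by 0.83 (SE 0.045, edgeR adjusted p = 3.0e-25) and ADAM19 by 1.33. ADAM10 (0.39) and ADAM9 (0.24) also rose, and are named after their values were seen. Of 4 proprotein convertases, which cut the propeptide of membrane-type MMPs, 3 were tested and 2 were higher. FURIN rose by 0.57 on the log2 scale (SE 0.046, edgeR adjusted p = 2.6e-17) and PCSK6 by 0.28. FURIN, PCSK6 and ADAM10 each held a 7mer-m8 site in the 3′ UTR and were higher with miR-19a. This was the strongest class in 7.37% of tested genes with a 3′ UTR. Among genes named below, SH3PXD2A and ETS1 held it and rose. FOSL1, which held it, and ETV5, which held it beside an 8mer, fell. From the lists, ADAMTS15 (0.24), WASL (-0.04) and FOSL2 (-0.006) also held it and did not pass the test. Of 14 ADAMTS proteases, secreted relatives that cut proteoglycans and procollagens, 4 were tested, with 2 higher (ADAMTS12 0.97, ADAMTS7 0.28) and 1 lower (ADAMTS10 -0.40).

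Of 9 cell surface partners that bind or present MMPs, 8 were tested, 2 were higher and 4 lower (all tested genes: 24.9% and 23.5%), with a median log2 fold change of -0.12. LCN2, the lipocalin that forms a complex with MMP9, had 0.47, 0.57 and 0.77 FPKM with miR-NC and 1.64, 1.72 and 1.30 with miR-19a, a log2 rise of 1.38 (SE 0.25, edgeR adjusted p = 4.1e-06). Like MMP9 it reached the expression minimum only through the miR-19a libraries. ITGAV, the integrin alpha chain that can dock MMP2, rose by 0.79. SDC1, a heparan sulphate proteoglycan that binds MMP7 and is shed from the surface, had a log2 fold change of -1.02, and CAV1, the caveola protein, had -0.45. SDC1 held an 8mer site in its 3′ UTR (window chr2:20202238-20202267, minus strand, site in capitals), a class found in 6.05% of tested genes with a 3′ UTR and in none of the 10 genes.
SDC1 8mer: atcgacttgttTTTGCACAtgtttcctcta

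Of 7 other protease inhibitors, 5 were tested, 0 were higher and 3 were lower (all tested genes: 24.9% and 23.5%), with a median of -0.19. SERPINE2, a secreted serpin, had a log2 fold change of -0.34. CST3, of the same list, held an 8mer site in its 3′ UTR, as SDC1 did, and did not pass the test (-0.05). All 10 genes of the list for invadopodia, the protrusions to which MMP14 is delivered, were tested, with 3 higher, 0 lower and a median of 0.11. That is a smaller share past the threshold than the 48.4% of all tested genes. SH3PXD2A, the scaffold TKS5 of these protrusions, rose by 1.05 and ACTR3, of the actin-branching complex, by 0.33. Among 14 AP-1, ETS and SP factors, which bind MMP promoters, 13 were tested, 4 were higher and 3 lower, with a median of -0.0007. The share past the threshold was near the 48.4% of all tested genes. FOS, among the higher, had a mean of 0.917 FPKM with miR-NC and 1.71 with miR-19a. Like MMP9, it reached the expression minimum only through the miR-19a libraries. JUNB rose by 0.72 and ETS1 by 0.68, whereas FOSL1 had -0.82 and ETV5 -0.71. Promoter entries in RefSeq (GRCh38.p14, from 250 bases before to 50 after the start) matched 6 of the 10 genes: MMP14, MMP15, MMP24, TIMP1, TIMP3 and RECK. On either strand the GC box GGGCGG was in 6 of 6, against 45.0% of 35116 promoters. The AP-1 motif (TGAGTCA or TGACTCA) was in 0 of 6 against 4.95%, and the TATA box TATAAA in 0 of 6 against 11.5%. At such low shares, 0 of 6 tells little. The promoter shares, that of the GC box included, are over all RefSeq entries and not over the tested genes alone. The promoters of MMP1, MMP2, MMP9 and TIMP2 had no entry and were not searched. Outside the 10 genes, the MMP7 promoter held an AP-1 match at -67 and a TATA box at -30 from the start.

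MMP2 is widely made by fibroblasts, and markers of other cell types were read beside it. The 10 fibroblast markers summed to 1.78 to 2.09 FPKM with miR-NC and 3.04 to 3.72 with miR-19a. COL1A1, the collagen I chain that can serve as an MMP substrate, made most of this difference, at 0.903 against 2.57 FPKM (log2 fold change 1.52), and it reached the expression minimum only through the miR-19a libraries, whereas THY1 had 0.89 and 0.613 FPKM. Of the same list, POSTN, COL1A2 and DCN were at or near 0, POSTN having no count in any library. COL3A1 had 2, 2 and 3 counts with miR-NC and 10, 5 and 8 with miR-19a, and LUM had 0, 1 and 1 against 5, 1 and 7. In all, 7 of the 10 stayed under 0.1 FPKM. The endothelial markers VWF and CDH5 summed to at most 0.05 FPKM and the 4 leukocyte markers to at most 0.28, with CD3E at 0. The part of these transcripts in the values of MMP2 and MMP9 was not tested.

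**Figure D4:**
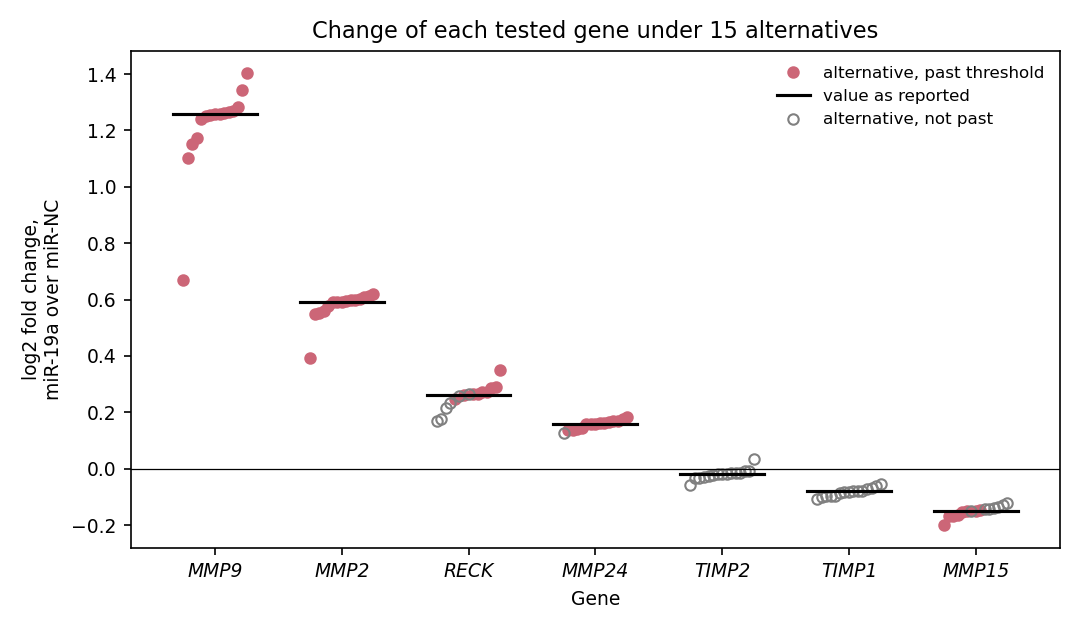
Log2 fold change (miR-19a over miR-NC) of the 7 tested genes in the main analysis and in 15 alternative analyses, each point being 1 analysis. MMP2 stays between 0.39 and 0.62 and MMP9 between 0.67 and 1.40, whereas TIMP2 lies on both sides of 0. The lowest MMP2 and MMP9 points come from log2(FPKM + 1), where the added 1 shrinks differences at low FPKM.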

How the data were processed

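Each sample has 2 deposited columns, raw counts in whole numbers and FPKM. Per the file headers the second holds FPKM, which the authors scaled by gene length and by library size; the deposited counts carry no scaling. Per the labels' protocols, poly(A) RNA gave read pairs of 150 nt. The submitters' processing notes name bcl2fastq 2.17.1.14. What aligner, counter, strand setting and build were used was not given in the sources used here. Coordinates come from matching gene identifiers to GENCODE v29 on GRCh38. Gene symbols are those of a reference table, or of GENCODE where it had none.

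Genes whose FPKM averaged 1 or more across the 6 libraries entered the quasi-likelihood test of edgeR 4.0.16 in R 4.3.3, as a two-sided test. TMM gave the scaling factors, and p-values were adjusted by Benjamini-Hochberg over all 12452 genes at a threshold of 0.05. The common biological coefficient of variation was 0.0352. CPM are TMM-scaled, and each standard error was derived from the log2 fold change and its F statistic. The test was run on simulated data before use. Genes below the minimum with a mean count of at least 10 were given an exact permutation test of CPM. Sites and motifs were counted as exact matches with Python 3.11.15. Replicate numbers did not pair the samples: correlations of same-numbered deviations were -0.0044, 0.0094 and -0.0369. No pair of libraries within a group was as close as sampling noise alone allows (chi-square per gene 1.59 to 4.15).

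Alternatives were median-of-ratios factors, library totals, DESeq2 1.42.0, limma 3.58.1 on log2(FPKM + 1) and log2(FPKM + 0.1), other filters, a replicate block, a fold minimum, leaving out each library and the longest 3′ UTR. The 10 genes and all lists were chosen with earlier results of these data known, so their counts are descriptions. Named genes are the 10 genes and, from each list, at most 2 rising and 2 falling genes past the threshold with the smallest adjusted p. Beyond it, ADAM9, ADAM10, ADAMTS15, WASL, FOSL2, CST3 and FOS are named, as are overlapping genes and marker genes. These were chosen after their values were seen or for the check they serve. 1 gene that this rule takes in is not reported here. MMP12, MMP28 and PECAM1 matched no identifier used and were not analysed here, nor were protein sequences.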

Additional observations from a re-analysis of the deposited data

How the results depend on the processing

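MMP2 (log2 fold change 0.39 to 0.62) and MMP9 (0.67 to 1.40) passed the threshold in all 15 alternatives. Both low ends came from limma on log2(FPKM + 1), where the added 1 shrinks differences at low FPKM. Without that setting MMP2 lay between 0.548 and 0.618 and MMP9 between 1.10 and 1.40. MMP24 passed in 14. RECK passed in 9 of 15, with adjusted p from 0.0063 to 0.210, and MMP15 in 8, from 0.0090 to 0.140. TIMP1 passed in none (0.0527 to 0.396). Of the 10 genes 5 passed in the main analysis, 3 with DESeq2, 2 with a fold minimum of 0.5 on the log2 scale, and 3 to 5 when 1 library was left out. The number higher was 4, fell to 2 with the fold minimum, and was 3 to 4 when 1 library was left out. The number lower was 1, and 0 with DESeq2, with a minimum mean of 0.1 FPKM, with no filter and with the fold minimum, and 0 to 1 when 1 library was left out. The ADAMTS list had 3 genes past the threshold, 5 with filterByExpr and 6 with no filter, where more genes are tested. Without miR-NC replicate 2 the sign changed for TIMP2 (0.035) and MMP14 (0.0756), and without miR-19a replicate 2 for MMP14 (0.0037). When 1 library was left out, TIMP2 ranged from -0.0591 to 0.035 and MMP14 from -0.104 to 0.0756, and the cause was not tested. With the replicate number as a block 5 genes passed (4 higher, 1 lower), and 5986 of all genes against 6023, and no call among the 10 genes changed. No scaling moved the median of all genes by more than 0.1. Counts under 100 per library in MMP9, MMP14 and TIMP3 limit their precision, and MMP1 could not be assessed.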
